A study of Homo sapiens with 30 samples.

Results

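The transcripts of 10 protein kinases that act in mitosis were followed through 4 knockdowns of negative elongation factor (NELF) in T47D cells. They were CDK1, PLK1, NEK2, AURKA, AURKB, BUB1, BUB1B, TTK, MELK and PBK, chosen by gene name as the members of a functional group and looked up by the symbol that the array platform gives them. The choice was made with earlier results of these data known, so counts set against all clusters are descriptions and not independent tests. Of the 10 kinases, 9 had a transcript cluster of their own among the 22011 gene-level clusters, which cover 14220 symbols with a cluster each of their own. BUB1B shares its cluster with a neighbouring gene and was measured as the median of its 29 exon-level probe sets.

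T47D is an established luminal, hormone receptor-positive breast cancer line. NELF is a complex of 4 subunits, NELF-A, NELF-B, NELF-C and NELF-E, that holds RNA polymerase II near promoters, and the series compared depletion of each subunit on Affymetrix exon arrays. Cells without any other labelled alteration received 10 nM of an siRNA duplex, against luciferase in the control group and against 1 NELF subunit in the groups siNELF-A, siNELF-B, siNELF-C or siNELF-E, and were collected 48 hours after a change of medium made at 48 hours. Each of the 5 groups had 3 arrays, which the series text describes as technical repeats, so the p-values measure the spread between such repeats and not between separate cultures. No number of cells was recorded with the arrays, and in bulk RNA a smaller share of cells in mitosis and less of a transcript per cell cannot be told apart.

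Mitotic kinases phosphorylate the proteins that condense chromosomes, build the spindle and hold or release sister chromatids. CDK1 with its cyclins starts mitosis, PLK1 and the Aurora kinases act at centrosomes, kinetochores and the cleavage site, and BUB1, BUB1B and TTK work in the spindle checkpoint, which delays anaphase until chromosomes are attached. Transcripts of these genes accumulate in G2 and mitosis and are repressed in resting cells by the DREAM complex, which is known to contact promoters at the cell cycle genes homology region, while the MuvB complex with B-MYB and FOXM1 activates them. In breast cancer they are part of the proliferation signature.

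Promoter sequence was available for 7 of the 10 kinases, as windows of 300 bases that run from 250 bases before to 50 bases after an annotated start in RefSeq (build GRCh38.p14). The letters TTTGAA or TTCGAA, the usual core of the cell cycle genes homology region, stood on either strand in a window of 4 of the 7, against 16.4% of all 35116 windows. CCAAT, the core bound by NF-Y, stood in a window of 5 of the 7, against 34.6% of all windows, and both kinds stood together in 3 of the 7, against 6.38% of all windows. CDK1 and AURKB each have a pair of windows, which were counted once per gene. The shares of all windows count each window, so the 2 are unlike measures, and a gene with a pair had more sequence to match. Among the 16433 windows of symbols with a gene-level cluster of their own, the shares were 13.5% for TTTGAA or TTCGAA and 34.7% for CCAAT. The 150 bases before the start are shown for the 5 kinases with a single window, to set the kinases that carry these letters beside MELK, which carries neither in its window. Capitals mark the letters searched for, read on either strand.
PLK1, chr16:23678739-23678888, plus strand: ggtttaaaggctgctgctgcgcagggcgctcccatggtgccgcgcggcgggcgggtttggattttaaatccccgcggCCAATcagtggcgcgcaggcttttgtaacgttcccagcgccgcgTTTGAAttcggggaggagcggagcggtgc
BUB1B, chr15:40160919-40161068, plus strand: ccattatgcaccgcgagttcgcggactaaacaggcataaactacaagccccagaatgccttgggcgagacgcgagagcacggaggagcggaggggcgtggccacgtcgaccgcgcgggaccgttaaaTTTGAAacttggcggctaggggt
BUB1, chr2:110678064-110678213, minus strand: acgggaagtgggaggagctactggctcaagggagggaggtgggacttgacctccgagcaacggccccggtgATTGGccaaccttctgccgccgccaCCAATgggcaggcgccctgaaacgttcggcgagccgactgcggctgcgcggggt
NEK2, chr1:211675622-211675771, minus strand: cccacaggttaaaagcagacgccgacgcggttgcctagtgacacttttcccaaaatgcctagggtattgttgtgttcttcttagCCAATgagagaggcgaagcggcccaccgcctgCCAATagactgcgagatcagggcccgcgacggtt
MELK, chr9:36572745-36572894, plus strand: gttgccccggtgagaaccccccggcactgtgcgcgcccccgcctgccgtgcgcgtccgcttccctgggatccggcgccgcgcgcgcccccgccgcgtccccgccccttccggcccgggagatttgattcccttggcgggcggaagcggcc
In PLK1 the TTTGAA begins 29 bases before the start and the CCAAT begins 73 bases before it. In BUB1B the TTTGAA begins 23 bases before the start. The TTCGAA of BUB1 begins at base 2 after the start and lies outside the stretch shown. These matches describe letters in a window and were not read as binding sites.

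The labels were checked before the kinases were read. NELFCD, the gene of NELF-C, fell by 3.42 on the log2 scale in siNELF-C (adjusted p = 1.67e-05). NELFE and NELFA were measured as medians of their exon-level probe sets, with p adjusted over all symbols with such medians. NELFE fell by 2.61 in siNELF-E (adjusted p = 2.49e-05). NELFA stood at -0.61 in siNELF-A, which was not called (adjusted p = 0.176; 0.0364 without siNELF-B replicates 2 and 3), and NELFB was not analysed here. Of the luminal markers, 10 of 10 lay above the 40th percentile of clusters, as did 3 of 5 basal, 1 of 5 mesenchymal, 1 of 4 leukocyte and 0 of 4 endothelial markers. The mean level of the luminal markers was 9.27 in the controls and 8.79 to 9.08 in the knockdowns, and 3 of the 10 were called lower in the mean of the 4 knockdowns; their part in the kinase results was not tested. The siNELF-B arrays stood apart: siNELF-B replicate 2 correlated at a mean r of 0.9845 with the controls but 0.945 with its own group, and siNELF-B replicate 3 had an interquartile range of 3.12 against 3.95 to 4.12 on the control arrays. Because all groups share an estimate of spread, these arrays also bear on comparisons that do not contain them, and counts are given without siNELF-B replicates 2 and 3 where they moved.

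All 10 kinases had their lowest mean level in siNELF-E, their next lowest in siNELF-C and their highest in the control group. For 7 of the 10 the siNELF-A mean lay above the siNELF-B mean, and for NEK2, AURKB and PLK1 it lay below it. Levels are robust multi-array average values on a log2 scale, where a step of 1 means a factor of 2, and a level of 1 gene is not set against that of another. All 3 arrays lay below all control arrays for 10 of 10 kinases in siNELF-A, C and E, where 22.5%, 31.3% and 21.1% of all clusters did, and for 4 of 10 in siNELF-B (PLK1, AURKA, AURKB and MELK), where 16.6% did. The plot of array values shows the order of the groups for each gene.

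**Figure D1:**
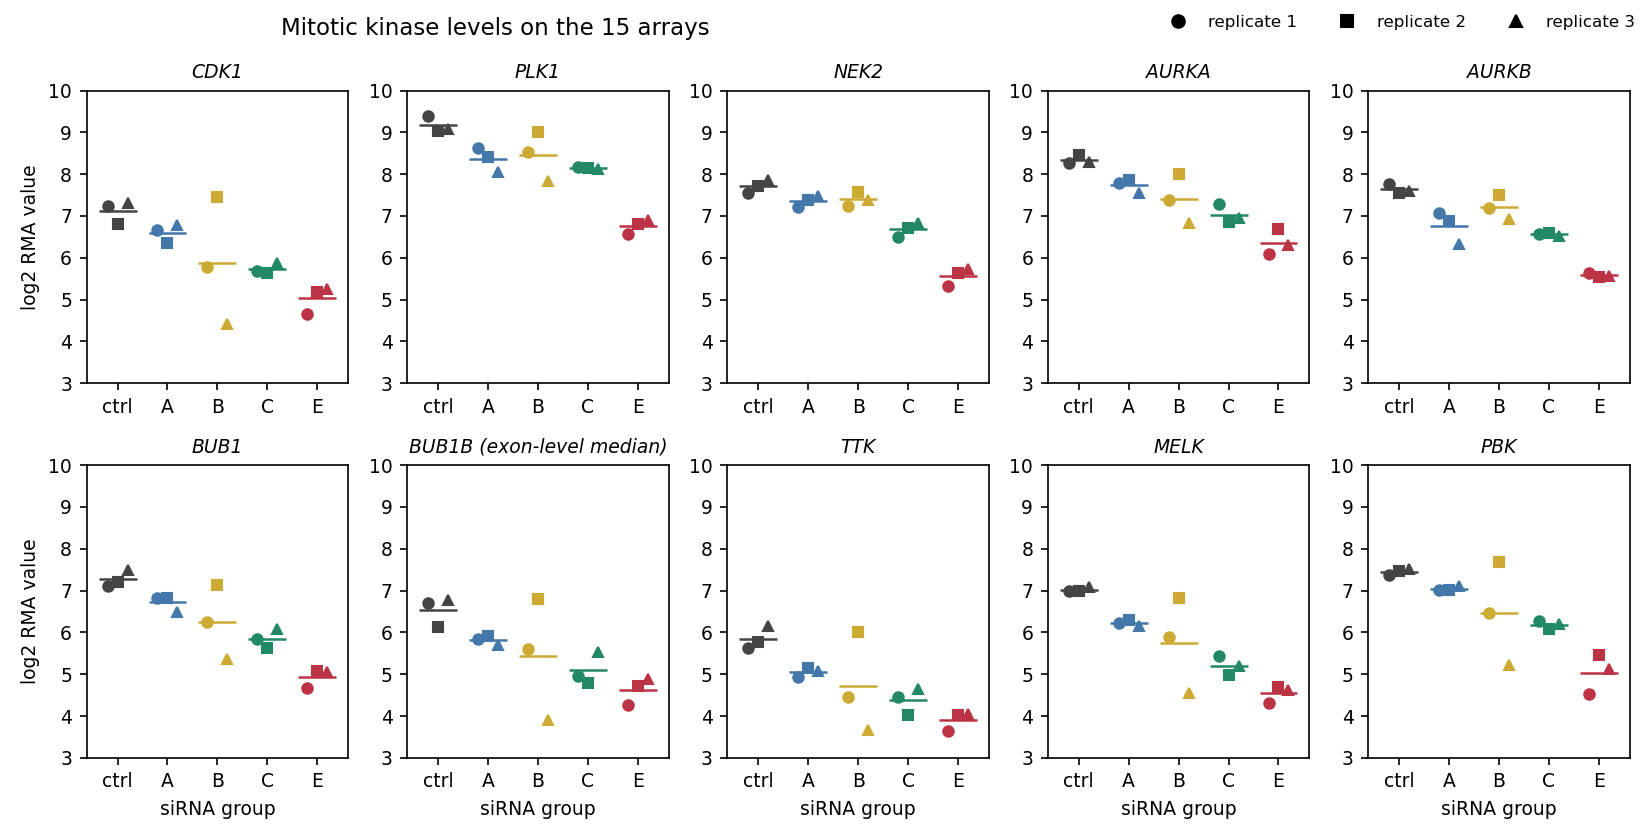
Level of each kinase (vertical axis, log2 robust multi-array average value) on each of the 15 arrays, by siRNA group (ctrl is control siRNA, A to E the 4 knockdowns). Symbols are replicate numbers and horizontal lines are group means. The siNELF-E arrays lie below every control array for all 10 kinases, while siNELF-B replicate 2 lies near the control arrays.

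Calls needed a change of at least 1.5-fold and a p below 0.05 in limma's linear model, after adjustment by Benjamini and Hochberg's method across the whole gene-level table. In siNELF-E all 9 kinases with a cluster of their own were called lower, where 4.04% of all clusters were, and their median change was -2.15 against -0.02 over all clusters. In siNELF-C 6 of the 9 were called lower (5.3% of all clusters), with a median of -1.30 against -0.08. In siNELF-A 1 of the 9 was called lower (2.83% of all clusters), with a median of -0.60, and in siNELF-B 0 of the 9 were (4.19% of all clusters), with a median of -0.98. The 4 knockdowns share the same 3 control arrays, so they are not independent tests of these genes. No kinase was called higher in siNELF-A, B, C or E, where 0.495%, 0.204%, 0.922% and 1.44% of all clusters were. At an unadjusted level the 95% interval lay below 0 for 9 of the 10 kinases in siNELF-B and for 4 of the 10 in siNELF-A. The share of all clusters with such an interval was not counted, so these 2 counts are not read as a kinase result. Over all clusters the median change was -0.14 in siNELF-B and -0.03 in siNELF-A.

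The spread of the siNELF-B arrays moved these counts. With siNELF-B replicates 2 and 3 both left out, 5 of the 9 kinases were called in siNELF-A, 9 in siNELF-C and 9 in siNELF-E, and 6 were called in siNELF-B from its single remaining array, whose spread is then taken to be that of the other groups. Calls over all clusters rose as well: in that fit 8.97%, 17.8%, 14.8% and 7.81% of all clusters were lower in siNELF-A, B, C and E. Leaving out siNELF-B replicate 2 alone gave 3, 7, 9 and 9 of 9 in siNELF-A, B, C and E (6.15%, 30.3%, 11.9% and 6.25% of all clusters). Leaving out siNELF-B replicate 3 alone gave 3, 0, 9 and 9 (7.71%, 1.44%, 13.4% and 7.01%). Without control replicate 1, 2 or 3 the siNELF-C count was 3 each time. Without siNELF-C replicate 1, 2 or 3 it was 4, 2 and 4. The siNELF-E count ran from 7 to 9 over the 15 arrays left out in turn. Except for the fits without siNELF-B replicate 2 or 3, the share of all clusters with an array left out is not given. The kinase counts from those other fits are not read as a kinase result.

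The arrays also differed in the position and width of their values. The mean of the 9 kinases, as a difference from the control mean, was -0.73 to -0.57 over the siNELF-A arrays, -1.44 to -1.23 over siNELF-C and -2.46 to -2.05 over siNELF-E. In siNELF-B it was -0.93, -0.04 and -1.71 on replicates 1, 2 and 3, whose interquartile ranges were 3.57, 4.02 and 3.12. The siNELF-E arrays had interquartile ranges of 3.89 to 4.01, near those of the controls, and the siNELF-C arrays of 3.62 to 3.75. When arrays were centred on their 75th percentiles, the median of all clusters moved to 0.19, 0.33, 0.27 and 0.11 in siNELF-A, B, C and E, and that of the 9 kinases to -0.38, -0.52, -0.95 and -2.01. That scaling raised the share of higher calls among all called clusters from 14.9%, 4.65%, 14.8% and 26.3% to 38%, 53%, 48% and 42.7%, in the same order of knockdowns. With the interquartile range as a covariate the median of the 9 kinases was -0.32, -0.10, -0.75 and -2.13. The part of array width in the siNELF-A and siNELF-B values was not tested beyond these settings.

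**Figure D2:**
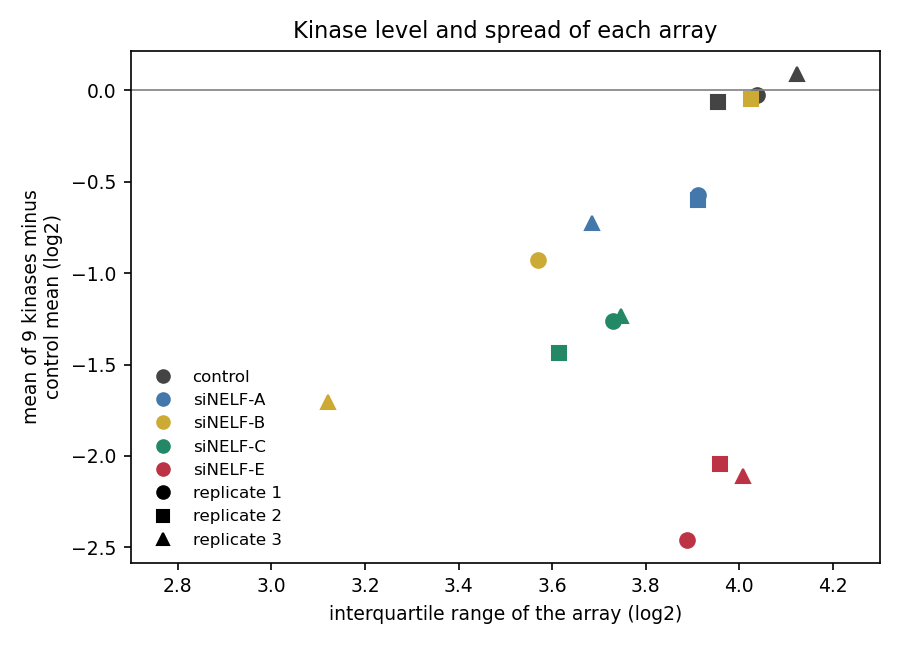
Mean level of the 9 kinases with their own cluster on each array, as a difference from the control mean (vertical axis, log2), against the interquartile range of all clusters on that array (horizontal axis, log2). Each point is 1 array, with colour for the group and shape for the replicate number. The siNELF-E arrays, at -2.46 to -2.05, have interquartile ranges of 3.89 to 4.01, and siNELF-B replicates 2 and 3 lie at 4.02 and 3.12.

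CDK1, the cyclin-dependent kinase that starts mitosis, and PLK1, which matures centrosomes and helps to activate CDK1, were both called in siNELF-E. CDK1 measured 7.25, 6.80 and 7.32 on the control arrays, 6.67, 6.35 and 6.78 on siNELF-A and 5.78, 7.45 and 4.43 on siNELF-B. It measured 5.67, 5.64 and 5.87 on siNELF-C and 4.67, 5.19 and 5.25 on siNELF-E. The siNELF-A, C and E arrays all lay below the lowest control array, and siNELF-B replicate 2 lay above the highest. CDK1 fell by 2.08 in siNELF-E (SE 0.522, 4.24-fold, adjusted p = 0.0336). Its changes of -0.52, -1.23 and -1.39 in siNELF-A, B and C were not called (adjusted p = 0.656, 0.141 and 0.123). The siNELF-B value was -2.02 and called without siNELF-B replicate 2 (adjusted p = 0.000786) and -0.50 without siNELF-B replicate 3 (adjusted p = 0.518). The siNELF-E call was lost without any 1 of the 9 control, siNELF-C and siNELF-E arrays (adjusted p = 0.0501 to 0.131), and the siNELF-C change was called without siNELF-B replicate 2 or 3 (adjusted p = 0.00732 and 0.0122). The CDK1 changes in siNELF-A and siNELF-B became 0.09 and 0.16 when the interquartile range was a covariate.

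PLK1 measured 9.40, 9.02 and 9.07 on the control arrays, 8.62, 8.40 and 8.05 on siNELF-A and 8.52, 8.999 and 7.85 on siNELF-B. It measured 8.17, 8.15 and 8.13 on siNELF-C and 6.58, 6.82 and 6.89 on siNELF-E. Every knockdown array lay below the lowest control array, siNELF-B replicate 2 by the least. PLK1 fell by 2.40 in siNELF-E (SE 0.243, 5.29-fold, adjusted p = 9.41e-05) and by 1.01 in siNELF-C (SE 0.243, 2.02-fold, adjusted p = 0.0273). The siNELF-E call held with each of the 15 arrays left out. The siNELF-C call was lost without any 1 of the 6 control and siNELF-C arrays (adjusted p = 0.0614 to 0.103), from exon-level medians (adjusted p = 0.0546) and, by its size of -0.57, once the interquartile range entered as a covariate. Values of -0.80 in siNELF-A and -0.71 in siNELF-B were not called (adjusted p = 0.0982 and 0.0875). The siNELF-A value was called without siNELF-B replicate 2 or 3 (adjusted p = 0.0108 to 0.0229), and the siNELF-B value was -0.98 and called without siNELF-B replicate 2 (adjusted p = 0.00375) but -0.40 without siNELF-B replicate 3 (adjusted p = 0.293).

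NEK2, a kinase that separates the centrosomes before the spindle forms, had the smallest standard error of the 10. NEK2 measured 7.56, 7.72 and 7.86 on the control arrays, 7.22, 7.38 and 7.48 on siNELF-A and 7.24, 7.56 and 7.38 on siNELF-B. It measured 6.49, 6.70 and 6.84 on siNELF-C and 5.32, 5.64 and 5.73 on siNELF-E. The siNELF-C and siNELF-E arrays formed separate steps below all others, and the siNELF-B arrays overlapped the controls at replicate 2. NEK2 fell by 2.15 in siNELF-E (SE 0.152, 4.42-fold, adjusted p = 5.22e-06) and by 1.03 in siNELF-C (SE 0.152, 2.04-fold, adjusted p = 0.00268), and both calls held with each of the 15 arrays left out. The siNELF-C call was lost after quantile normalization and after centring on 75th percentiles (adjusted p up to 0.0577). The siNELF-A value of -0.35 (95% interval -0.68 to -0.03) and the siNELF-B value of -0.32 (95% interval -0.65 to 0.01) were not called, and the latter became 0.19 after quantile normalization and 0.15 after centring on 75th percentiles.

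The Aurora kinases divide their work: AURKA acts at centrosomes and spindle poles, and AURKB is the catalytic subunit of the chromosomal passenger complex, which corrects chromosome attachments and guides cytokinesis. AURKA measured 8.27, 8.45 and 8.29 on the control arrays, 7.79, 7.86 and 7.56 on siNELF-A and 7.39, 7.999 and 6.82 on siNELF-B. It measured 7.29, 6.85 and 6.96 on siNELF-C and 6.09, 6.69 and 6.30 on siNELF-E. All 12 knockdown arrays lay below the lowest control array. AURKA fell by 1.98 in siNELF-E (SE 0.251, 3.95-fold, adjusted p = 0.000453) and by 1.30 in siNELF-C (SE 0.251, 2.47-fold, adjusted p = 0.0105). The siNELF-E call held with each of the 15 arrays left out, and the siNELF-C call held in 14 of 15, being lost without siNELF-C replicate 2 (adjusted p = 0.0568), and was also lost from exon-level medians (adjusted p = 0.0717). The siNELF-A value was -0.60 (adjusted p = 0.238), and the siNELF-B value of -0.93 (adjusted p = 0.0517) was -1.23 and called without siNELF-B replicate 2 (adjusted p = 0.00107) and -0.64 without siNELF-B replicate 3 (adjusted p = 0.145). AURKA has a pseudogene copy, AURKAPS1, and the probe sets that the annotation gives to both were left out of its exon-level set.

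AURKB was the only 1 of the 9 called in siNELF-A. It measured 7.77, 7.55 and 7.60 on the control arrays, 7.07, 6.88 and 6.33 on siNELF-A and 7.19, 7.50 and 6.94 on siNELF-B. It measured 6.58, 6.58 and 6.52 on siNELF-C and 5.64, 5.53 and 5.57 on siNELF-E. Every knockdown array lay below every control array, and siNELF-B replicate 2 came within the width of the control group. AURKB fell by 2.06 in siNELF-E (SE 0.184, 4.16-fold, adjusted p = 3.49e-05) and by 1.08 in siNELF-C (SE 0.184, 2.11-fold, adjusted p = 0.00544), and both calls held with each of the 15 arrays left out. AURKB fell by 0.88 in siNELF-A (SE 0.184, 1.84-fold, adjusted p = 0.0206), a call that was lost without control replicate 1, 2 or 3 or siNELF-A replicate 3 (adjusted p = 0.0523 to 0.0942). The siNELF-B value of -0.43 was not called (adjusted p = 0.144) and became 0.07 after quantile normalization and 0.04 after centring on 75th percentiles.

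BUB1 and TTK, also named MPS1, recruit the spindle checkpoint to unattached kinetochores, and BUB1B, also named BUBR1, is part of the complex that inhibits the anaphase-promoting complex. BUB1 measured 7.11, 7.21 and 7.49 on the control arrays, 6.83, 6.83 and 6.49 on siNELF-A and 6.26, 7.12 and 5.35 on siNELF-B. It measured 5.83, 5.63 and 6.09 on siNELF-C and 4.67, 5.08 and 5.05 on siNELF-E. Outside siNELF-B, the groups did not overlap with the controls, and siNELF-B replicate 2 lay inside their range. BUB1 fell by 2.34 in siNELF-E (SE 0.33, 5.06-fold, adjusted p = 0.000913), which held with each of the 15 arrays left out. BUB1 fell by 1.42 in siNELF-C (SE 0.33, 2.68-fold, adjusted p = 0.0237), a call lost without control replicate 1, 2 or 3 or siNELF-C replicate 1 or 2 (adjusted p = 0.0613 to 0.105). Values of -0.56 in siNELF-A and -1.03 in siNELF-B were not called (adjusted p = 0.425 and 0.0748), and the siNELF-B value was -1.47 and called without siNELF-B replicate 2 (adjusted p = 0.000988) and -0.58 without siNELF-B replicate 3 (adjusted p = 0.227).

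TTK measured 5.64, 5.77 and 6.14 on the control arrays, 4.94, 5.15 and 5.08 on siNELF-A and 4.46, 6.01 and 3.67 on siNELF-B. It measured 4.46, 4.04 and 4.63 on siNELF-C and 3.64, 4.03 and 4.05 on siNELF-E. The siNELF-C and siNELF-E arrays overlapped each other, and the siNELF-B arrays ran from inside the control range at replicate 2 to near the lowest siNELF-E array at replicate 3. TTK fell by 1.94 in siNELF-E (SE 0.425, 3.84-fold, adjusted p = 0.0156), a call lost without control replicate 3 or siNELF-E replicate 1 (adjusted p = 0.076 and 0.0712). The siNELF-C value of -1.47 was not called (adjusted p = 0.0563) and was called without siNELF-B replicate 2 or 3 (adjusted p = 0.00127 to 0.00674). Values of -0.79 in siNELF-A and -1.14 in siNELF-B were not called (adjusted p = 0.373 and 0.107), and the former was called without siNELF-B replicate 2 (adjusted p = 0.0487). The siNELF-B value was -1.79 and called without siNELF-B replicate 2 (adjusted p = 0.000408), -0.61 without siNELF-B replicate 3 (adjusted p = 0.391) and 0.01 when the interquartile range was a covariate.

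BUB1B, as the median of its probe sets, measured 6.69, 6.13 and 6.78 on the control arrays, 5.85, 5.92 and 5.70 on siNELF-A and 5.59, 6.81 and 3.90 on siNELF-B. It measured 4.96, 4.80 and 5.52 on siNELF-C and 4.26, 4.73 and 4.89 on siNELF-E. The lowest of the 15 values belonged to siNELF-B replicate 3 and the highest to siNELF-B replicate 2. BUB1B fell by 1.91 in siNELF-E (SE 0.505, 3.75-fold, adjusted p = 0.0472 over the 16909 symbols with such medians, of which 3.32% were called lower). That call held in 2 of the 15 fits with an array left out, those without siNELF-B replicate 2 or 3, and the adjusted p rose to as much as 0.187 in the others. Changes of -0.71, -1.10 and -1.44 in siNELF-A, B and C were not called (adjusted p = 0.553, 0.155 and 0.111), where 2.05%, 3.2% and 4.34% of these symbols were called lower, and the siNELF-B value became 0.36 with the interquartile range as a covariate. Without siNELF-B replicate 2 the siNELF-B value of -1.79 and the siNELF-C value were called (adjusted p = 0.00236 and 0.0131). Without siNELF-B replicate 3 the siNELF-C value was called (adjusted p = 0.0045) and the siNELF-B value was -0.33 (adjusted p = 0.648).

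MELK, a kinase related to the AMP-activated protein kinase family and abundant in dividing tumour cells, showed the largest fold of the 10 in siNELF-E. MELK measured 6.98, 6.99 and 7.08 on the control arrays, 6.23, 6.30 and 6.15 on siNELF-A and 5.89, 6.82 and 4.55 on siNELF-B. It measured 5.45, 4.98 and 5.19 on siNELF-C and 4.31, 4.71 and 4.63 on siNELF-E. All 12 knockdown arrays lay below the lowest control array, and the siNELF-B arrays ran from just below the controls at replicate 2 to among the siNELF-E arrays at replicate 3. MELK fell by 2.47 in siNELF-E (SE 0.393, 5.54-fold, adjusted p = 0.00215), which held with each of the 15 arrays left out. MELK fell by 1.81 in siNELF-C (SE 0.393, 3.51-fold, adjusted p = 0.0181), a call lost without control replicate 1, 2 or 3 or siNELF-C replicate 2 or 3 (adjusted p = 0.0562 to 0.0848). Values of -0.79 in siNELF-A and -1.27 in siNELF-B were not called (adjusted p = 0.327 and 0.0699); the first was called without siNELF-B replicate 3 (adjusted p = 0.028). The second was -1.80 and called without siNELF-B replicate 2 (adjusted p = 0.00079) and -0.67 without siNELF-B replicate 3 (adjusted p = 0.156). The MELK promoter window is the sequence above with none of the searched letters.

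PBK, also named TOPK, is a kinase of the mitogen-activated kinase kinase type that is active in mitosis. PBK measured 7.37, 7.47 and 7.51 on the control arrays, 7.02, 7.01 and 7.11 on siNELF-A and 6.47, 7.69 and 5.23 on siNELF-B. It measured 6.27, 6.07 and 6.21 on siNELF-C and 4.52, 5.46 and 5.12 on siNELF-E. The siNELF-A arrays lay closer to the controls than the siNELF-C arrays did, and siNELF-B replicate 2 lay above all controls. PBK fell by 2.41 in siNELF-E (SE 0.438, 5.32-fold, adjusted p = 0.00516), which held with each of the 15 arrays left out. The siNELF-C value of -1.27 was not called (adjusted p = 0.0984) and was called without siNELF-B replicate 2 or 3 (adjusted p = 0.00721 to 0.0094). Values of -0.40 in siNELF-A and -0.98 in siNELF-B were not called (adjusted p = 0.682 and 0.155). Both turned slightly positive, at 0.09 and 0.16, when the interquartile range was a covariate, and the siNELF-B value was -1.60 and called without siNELF-B replicate 2 (adjusted p = 0.00206) but -0.37 without siNELF-B replicate 3 (adjusted p = 0.57).

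**Figure D3:**
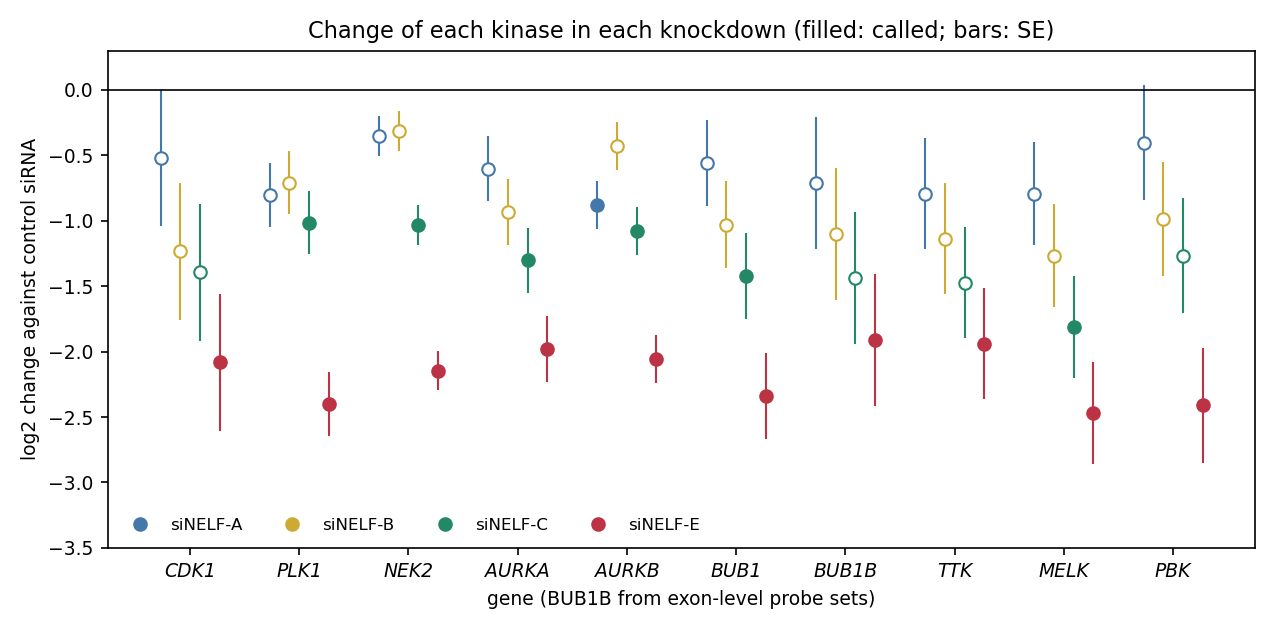
Change of each kinase against control siRNA (vertical axis, log2) in siNELF-A, B, C and E, with bars for 1 standard error from the linear model. Filled points were called and open points were not, and BUB1B comes from exon-level probe sets. The siNELF-E changes run from -2.47 to -1.91, below the other 3 knockdowns for every gene.

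Whether the knockdowns differed from each other was tested directly. The siNELF-E level was lower than the siNELF-A level for 7 of the 9 kinases (1.49% of all clusters were called lower), than siNELF-B for 5 (1.16%) and than siNELF-C for 3 (1.59%). The 3 kinases lower in siNELF-E than in siNELF-C were PLK1, by 1.39 (adjusted p = 0.0052), NEK2, by 1.11 (adjusted p = 0.00115), and AURKB, by 0.98 (adjusted p = 0.00803), and each of these calls held with every 1 of the 15 arrays left out. From exon-level medians the NEK2 and AURKB differences were not called (-0.53 and -0.67, adjusted p = 0.379 and 0.0625). NEK2 was also lower in siNELF-C than in siNELF-A and in siNELF-B, by 0.68 and 0.71 (adjusted p = 0.0315 and 0.0299), the only 1 of the 9 in either comparison (1.66% and 0.536% of all clusters). The first of these calls was lost in 8 of the 15 fits with an array left out (adjusted p up to 0.14), those without any siNELF-A or siNELF-C array, control replicate 2 or siNELF-E replicate 2, and the second in 5, those without any siNELF-C array, control replicate 2 or siNELF-B replicate 1 (adjusted p up to 0.149). For CDK1, MELK, TTK and BUB1B the siNELF-E and siNELF-C levels differed by -0.69, -0.66, -0.47 and -0.47, with 95% intervals of -1.82 to 0.44, -1.51 to 0.19, -1.39 to 0.45 and -1.55 to 0.61. Each of these intervals includes 0 and also a further drop of over 1 on the log2 scale. No kinase was called between siNELF-A and siNELF-B (0 of 9 lower, where 3.46% of all clusters were called lower). Their differences ran from -0.71 for CDK1 (95% interval -1.84 to 0.42, adjusted p = 0.511) to 0.45 for AURKB (95% interval 0.05 to 0.85, adjusted p = 0.194).

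Single arrays moved these counts. Against siNELF-A the siNELF-E count was 5 without any 1 siNELF-A array or siNELF-E replicate 1 or 3, where MELK and PBK were lost (adjusted p = 0.0626 to 0.116). Against siNELF-B it was 3 without siNELF-B replicate 1 or siNELF-E replicate 1 or 3, where AURKA and BUB1 were lost (adjusted p = 0.0819 to 0.107). The share of all clusters called lower in these fits is not given, so these drops are not read as particular to the kinases. Without siNELF-B replicates 2 and 3 together, 8 of the 9 kinases were lower in siNELF-E than in siNELF-C, where 3.19% of all clusters were in that fit, and 7 were lower in siNELF-C than in siNELF-A, where 7.07% were. Without siNELF-B replicate 2 or 3 alone, the siNELF-E against siNELF-C count was 6 (2.58% and 2.84% of all clusters), with AURKA, BUB1 and PBK added (adjusted p = 0.0146 to 0.0365). Without siNELF-B replicate 2, 6 of the 9 were lower in siNELF-B than in siNELF-A, where 19.5% of all clusters were. Without siNELF-B replicate 3, all 9 were lower in siNELF-E than in siNELF-B, where 3.0% of all clusters were.

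The kinases followed a common course over the 15 arrays. Each of the 9 correlated with the mean of the other 8 at r = 0.871 for NEK2 to 0.991 for BUB1, as a description over 15 arrays that share their groups, controls and array quality. Outside the 10, the clusters most like the kinases' centred mean were DLGAP5 (r = 0.9915), KIF2C (r = 0.9915), CEP55 (r = 0.9853), MCM10 (r = 0.9851) and ANLN (r = 0.9843), over the same arrays. DLGAP5 is a spindle microtubule protein, KIF2C a microtubule-depolymerising kinesin, CEP55 and ANLN act in cytokinesis, and MCM10 loads the replication machinery. Their changes in siNELF-E were -2.53, -2.28, -2.25, -2.25 and -2.11.

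Probe sets measure separate stretches, mostly exons, of a transcript, and the exon-level table holds 180 of them for the 10 kinases. In siNELF-E 87 of the 180 were called lower (1.35% of all 287329 probe sets), in siNELF-C 16 (0.969%), in siNELF-A 0 (0.556%) and in siNELF-B 0 (0.157%), with none called higher in siNELF-A, B, C or E (0.0623%, 0.00661%, 0.181% and 0.251% of all probe sets). Below the control mean, whatever the call, lay 176 in siNELF-E, 172 in siNELF-C, 169 in siNELF-A and 168 in siNELF-B, where 53.1%, 59.0%, 57.3% and 62.9% of all probe sets did. The calls in siNELF-E took in 12 of 13 PLK1, 8 of 11 AURKA, 7 of 13 AURKB, 17 of 31 BUB1 and 14 of 23 MELK probe sets. They took in 5 of 12 NEK2, 6 of 14 PBK, 10 of 29 BUB1B, 6 of 24 TTK and 2 of 10 CDK1 probe sets. In siNELF-C the called sets were 6 of MELK, 4 of BUB1, 2 of NEK2, 2 of BUB1B, 1 of AURKA and 1 of AURKB. The 2 tables summarise the same arrays and are not independent of each other.

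The exon-level counts moved with single arrays too, and so did those over all probe sets. Without siNELF-B replicates 2 and 3 the counts were 12, 23, 129 and 140 of 180 in siNELF-A, B, C and E, where 3.58%, 4.71%, 9.16% and 3.66% of all probe sets were called lower in the same fit. The siNELF-E count dropped to 47, 51, 44 and 45 without control replicate 1, 2 or 3 or siNELF-E replicate 1. The siNELF-C count was 1 to 3 without any 1 of the 6 control and siNELF-C arrays, 10 without siNELF-A replicate 2 or siNELF-E replicate 2, and 82 and 99 without siNELF-B replicate 2 and 3 (3.97% and 6.11% of all probe sets). The siNELF-B count was 107 without siNELF-B replicate 2 (20.6% of all probe sets). In siNELF-A the count was 1 and 2 without siNELF-B replicate 2 and 3, where 1.43% and 2.47% of all probe sets were called lower. For fits without a control, siNELF-A, siNELF-C or siNELF-E array that share is not given. Counts from those fits are not read as a kinase result.

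**Figure D4:**
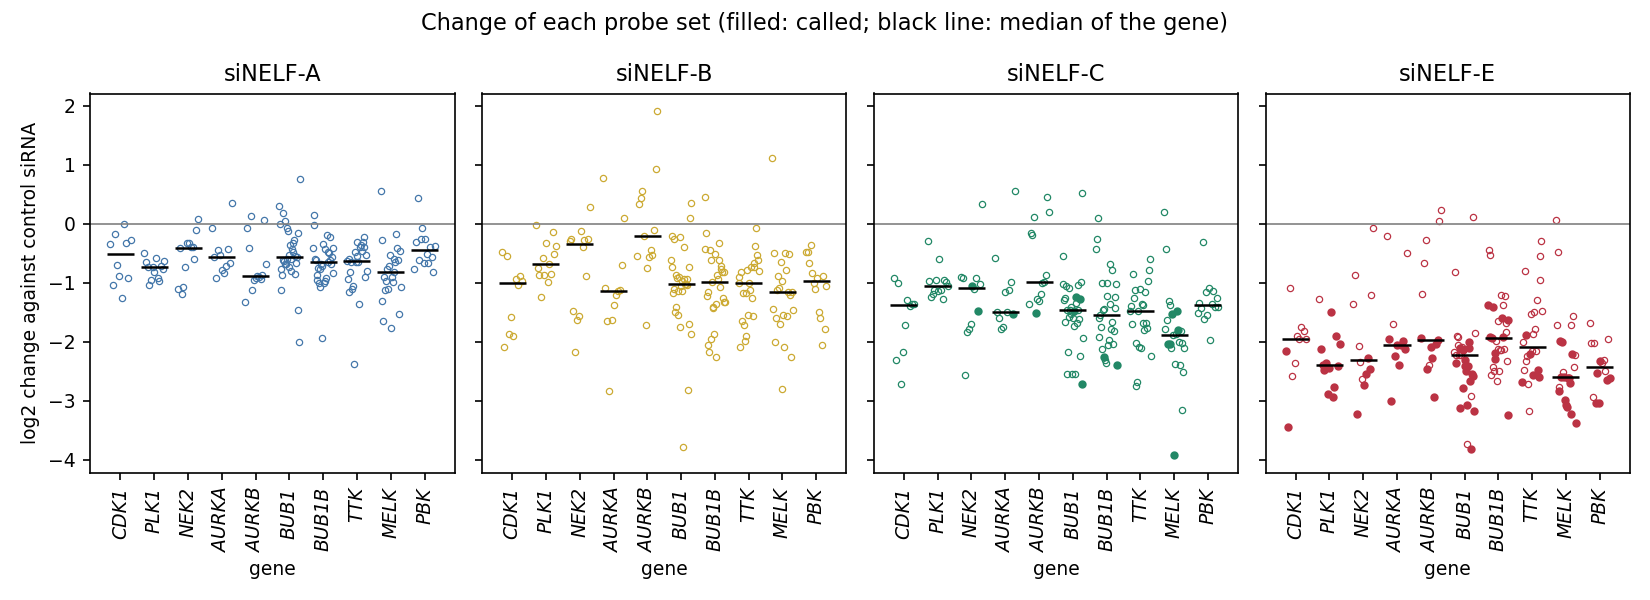
Change of each of the 180 probe sets against control siRNA (vertical axis, log2), 1 panel per knockdown, by gene. Filled points were called, open points were not, and the black line is the median of the gene. In the siNELF-E panel 87 points are filled and 176 lie below 0, and a NEK2 and a MELK probe set lie close to 0.

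Exon usage asks whether a single probe set moved away from the rest of its gene, and could be tested for 169 probe sets of the 10 kinases. In siNELF-A, B, C and E, 0, 4, 1 and 2 of them were called, where 0.21%, 0.853%, 0.553% and 0.133% of all probe sets tested were. In NEK2 the probe set 2454463 measured 9.81, 9.63 and 9.32 on the control arrays and 9.65, 9.49 and 9.42 on the siNELF-E arrays, so these groups overlapped. The median of the other 11 NEK2 probe sets averaged 8.05 in the controls and 5.88 in siNELF-E. The usage test compared it with the average change of the other NEK2 probe sets that passed the filter on dim probe sets. By that test probe set 2454463 was higher by 2.16 in siNELF-E (adjusted p = 0.0492). In MELK the probe set 3168509 measured 5.87, 5.28 and 4.91 on the control arrays and 5.67, 5.35 and 5.26 on the siNELF-E arrays, again overlapping. The median of the other 22 MELK probe sets averaged 6.67 in the controls and 4.15 in siNELF-E. By the same test the relative change of probe set 3168509 in siNELF-B, C and E was 2.47, 2.26 and 2.58 (adjusted p = 0.0165, 0.0467 and 0.031).

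The other 3 usage calls were in siNELF-B, for probe set 3910786 of AURKA (2.19), 3744291 of AURKB (2.13) and 2570659 of BUB1 (-2.73). Their adjusted p by the usage test was 0.0208, 0.0355 and 0.00835. The AURKA and AURKB probe sets were dim, at 3.53 and 3.32 in the controls, where the filter lay at 2.93. Medians of their other probe sets averaged 8.79 and 7.20 there. AURKA probe set 3910786 measured 4.56, 5.18 and 3.19 on siNELF-B and 4.06, 3.76 and 2.77 on the control arrays, so these overlapped. BUB1 probe set 2570659 measured 2.37, 6.47 and 0.54 on the siNELF-B arrays. The NEK2 call held in 3 of the 15 fits with an array left out, those without siNELF-B replicate 2, siNELF-B replicate 3 or siNELF-C replicate 2. The MELK calls in siNELF-B, C and E held in 11, 2 and 7 of the 15. Totals of usage calls with arrays left out follow without the share of all tested probe sets called in the same fit. They are not read as a kinase result. Over the 4 knockdowns the 7 usage calls became 0 without control replicate 2 or 3, 2 without control replicate 1, 3 without siNELF-B replicate 1 or siNELF-E replicate 1, and 4 without siNELF-A replicate 1 or 2 or siNELF-E replicate 2. They became 25 and 11 without siNELF-B replicate 2 and 3, and 23 without both. In that last fit the NEK2 probe set was called in siNELF-C (1.78, adjusted p = 0.00123) and siNELF-E (2.16, adjusted p = 0.000154).

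Genes that work with the kinases were read from lists by function, in siNELF-E and in the mean of the 4 knockdowns against control. Of all clusters, 2.83%, 4.19%, 5.3% and 4.04% were called lower in siNELF-A, B, C and E. A list count of 1 or 2 is too small to set against these shares. List counts with arrays left out are given without the share of all clusters in the same fit. The share for the mean of the 4 knockdowns was 4.46%. For that mean 8 of the 9 kinases were called lower (4.46% of all clusters), with CDK1 outside (-1.31, adjusted p = 0.0823); BUB1B, from its probe sets, was also not called (-1.29, adjusted p = 0.0821, with 3.91% of symbols called lower). Of the 8, the TTK and PBK calls were lost without most single arrays (adjusted p up to 0.215 and 0.219), those of MELK without control replicate 1, 2 or 3 (0.0531 to 0.0784) and that of BUB1 without control replicate 3 (0.0917). The count of kinases was 5, 5 and 4 without control replicate 1, 2 and 3. The share of all clusters in those fits is not given, so these counts are not read as a kinase result. Without siNELF-B replicate 2 or 3 alone it was 9 each time, where 12.3% and 6.24% of all clusters were called lower.

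Of the cyclins and regulators of CDK1, 8 of 10 measured genes were called lower in siNELF-E and the list median was -1.63. The counts were 0 in siNELF-A, 1 in siNELF-B and 5 in siNELF-C, and 6 for the mean of the 4. In that mean the cyclins CCNB2, CCNA2 and CCNB1 fell by 1.56, 1.38 and 1.17 (adjusted p = 0.00943, 0.00436 and 0.00185), and CDC25C, a phosphatase that activates CDK1, fell by 1.19 (adjusted p = 0.0289). CKS2, a CDK1 subunit, and CCNH, the cyclin of the CDK-activating kinase, stood at -0.68 and -0.55 and were not called (adjusted p = 0.254 and 0.256). The CDK1 inhibitors WEE1 and PKMYT1 were called lower in siNELF-E, at -1.01 and -0.92 (adjusted p = 0.00466 and 0.00112); these 2 were chosen after their values were seen. The CDC25C call was lost without control replicate 1, 2 or 3 (adjusted p up to 0.189) and when the interquartile range was a covariate (adjusted p = 0.115), and that of CCNB2 without control replicate 1 or 3 (adjusted p up to 0.0737). Those arrays lowered the list count to as few as 3.

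Activators and partners of PLK1 and the Aurora kinases were called lower in 7 of 11 cases in siNELF-E, with a median of -2.03, in 6 in siNELF-C and in 1 each in siNELF-A and siNELF-B. NEDD9, an AURKA activator, was called higher in siNELF-C (0.70, adjusted p = 0.0252), a gene named after its value was seen. For the mean of the 4 knockdowns the count was 7: SGO1, the cohesin protector, fell by 1.81 (adjusted p = 0.0213), BIRC5, survivin of the passenger complex, by 1.34 (adjusted p = 0.000431), PRC1, the midzone microtubule bundler, by 1.32 (adjusted p = 0.0146) and CEP55 by 1.29 (adjusted p = 0.0239). AJUBA and CEP192, which help to activate AURKA, stood at 0.08 and -0.76 (adjusted p = 0.844 and 0.0563). The SGO1, PRC1 and CEP55 calls were lost without control replicate 1, 2 or 3 (adjusted p up to 0.147), which left as few as 1 call in the list. CEP192 was called without siNELF-B replicates 2 and 3 (adjusted p = 0.000476).

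Of 11 partners in the spindle checkpoint, 6 were called lower in siNELF-E, 5 in siNELF-C and 1 each in siNELF-A and siNELF-B, with a median of -1.56 in siNELF-E. CDC20, the checkpoint's target and activator of the anaphase-promoting complex, changed by -3.02 in siNELF-E (adjusted p = 5.22e-05). In the mean of the 4 knockdowns 6 were called, among them SPDL1, which brings dynein to kinetochores (-1.62, adjusted p = 0.0042), CDC20 (-1.54, adjusted p = 0.00196), KNL1, the kinetochore platform of BUB1 (-1.44, adjusted p = 0.0146), and TRIP13, which disassembles the checkpoint complex (-1.28, adjusted p = 0.00396). BUB3, the binding partner of BUB1 and BUB1B, was at -0.47 (adjusted p = 0.191) and ZW10 at -0.72 (adjusted p = 0.102), neither of them called. The KNL1 call was lost without control replicate 1, 2 or 3 (adjusted p up to 0.111), and the list count then came to as few as 3. ZW10 was called without siNELF-B replicate 2 or 3, and without both (adjusted p = 0.000607).

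**Figure D5:**
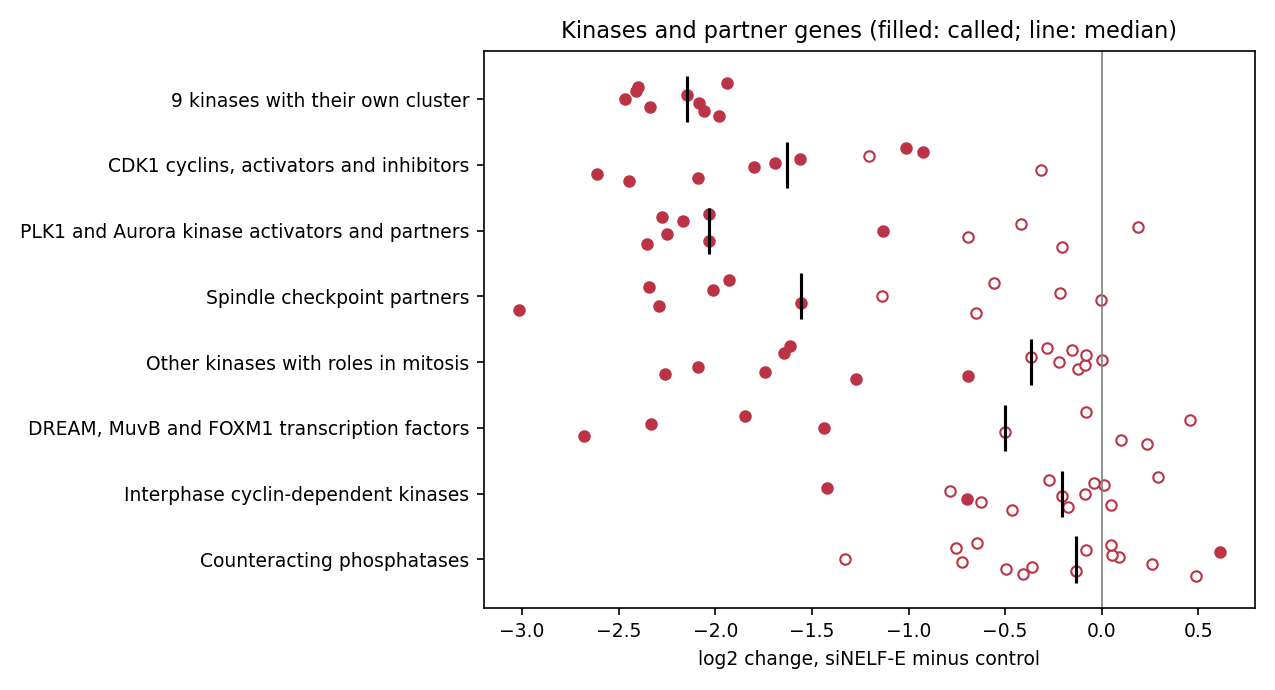
Change in siNELF-E against control siRNA (horizontal axis, log2) of the 9 kinases with their own cluster and of the measured genes in 7 functional lists. Each point is a gene, filled where called, and the vertical line is the list median. The medians run from -2.15 for the kinases to -0.13 for counteracting phosphatases.

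Other kinases with roles in mitosis were called lower in 7 of 15 cases in siNELF-E, with a list median of -0.37, and in 1, 2 and 5 cases in siNELF-A, B and C. The mean of the 4 knockdowns called 7, led by MASTL, which restrains a phosphatase of mitosis (-1.51, adjusted p = 0.0139), CIT, a cytokinesis kinase (-1.38, adjusted p = 0.0043), VRK1, which phosphorylates histone H3 and chromatin anchors (-1.24, adjusted p = 0.0205), and PLK4, which starts centriole duplication (-1.20, adjusted p = 0.00736). PLK2 and NEK9, the brightest that were not called, stood at 0.08 and -0.35 (adjusted p = 0.863 and 0.302). The MASTL and VRK1 calls were lost without control replicate 1, 2 or 3, and that of PLK4 without control replicate 3 (adjusted p up to 0.137 over the 3 genes), and the list count was then as low as 2. In siNELF-E the list count dropped to 4 over single arrays left out, being over 1.5 times smaller without control replicate 2 or 3 or siNELF-E replicate 1 or 3.

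Transcription factors of the DREAM, MuvB and FOXM1 group, which control the kinase genes, were called lower in 4 of 9 cases in siNELF-E and siNELF-C, 2 in siNELF-A and 1 in siNELF-B. The list median in siNELF-E was -0.503, with changes from -2.68 to 0.455. In siNELF-E FOXM1 changed by -2.68 (adjusted p = 0.000178) and MYBL2, the gene of B-MYB, by -2.33 (adjusted p = 3.44e-06). The 4 called in the mean of the knockdowns were FOXM1 (-1.67, adjusted p = 0.00167), MYBL2 (-1.26, adjusted p = 0.000137), LIN9, a MuvB subunit (-1.20, adjusted p = 0.0106), and RBL1, the gene of the pocket protein p107 (-1.17, adjusted p = 0.0213). TFDP2 and E2F4 stood at -0.26 and -0.20 (adjusted p = 0.406 and 0.541). The RBL1 call was lost without control replicate 1, 2 or 3 (adjusted p up to 0.14) and that of LIN9 without control replicate 3 (adjusted p = 0.105), which left 2 calls.

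Interphase cyclin-dependent kinases and counteracting phosphatases moved less in siNELF-E by their list medians. Of 13 interphase kinases 2 were called lower in siNELF-E, with a median of -0.21: CDK2, which acts in S phase (-1.42, adjusted p = 0.00225), and CDK16 (-0.70, adjusted p = 0.0446). For the mean of the 4 knockdowns CDK16 (-0.89, adjusted p = 0.00423), CDK2 (-0.87, adjusted p = 0.0139) and CDK14 (-0.67, adjusted p = 0.0492) were called, while CDK12 and CDK13, kinases of elongating RNA polymerase II, stood at -0.46 and -0.26 (adjusted p = 0.45 and 0.427). Of 15 phosphatase genes 0 were called lower and PPP2R5B, a regulatory subunit of phosphatase PP2A named after its value was seen, was called higher in siNELF-E (0.61, adjusted p = 0.00772), with a list median of -0.13. In the mean of the 4 PPP1CC, a catalytic subunit of phosphatase PP1 (-0.76, adjusted p = 0.0229), and PPP2R5D, of PP2A (-0.67, adjusted p = 0.0438), were called, and PPP1CA and PPP6C stood at -0.56 and -0.53 (adjusted p = 0.0672 and 0.265). The CDK16 call in siNELF-E held in 4 of the 15 fits with an array left out, and the CDK14 and PPP2R5D calls in the mean held in 2 of 15. The CDK2 and PPP1CC calls in the mean were lost without control replicate 1, 2 or 3 (adjusted p up to 0.142), and by size after centring on 75th percentiles (-0.58 and -0.47) and when the interquartile range was a covariate (-0.52 and -0.44). The CDK14 and PPP2R5D calls were lost under each of the 4 scaling settings, at -0.58 to -0.38 and -0.52 to -0.32, and the CDK16 call in siNELF-E after centring on 75th percentiles (-0.56). The phosphatase count was 2, 2, 2 and 3 in siNELF-E and 1, 1, 0 and 0 in the mean under quantile normalization, centring on medians, centring on 75th percentiles and the covariate, and the interphase count in the mean was 1 under the covariate. Over single arrays left out the siNELF-E counts were 1 to 4 for the kinases and 0 to 4 for the phosphatases, and those of the mean 1 to 5 and 0 to 5. Without siNELF-B replicates 2 and 3 they were 4 and 4 in siNELF-E and 5 and 5 in the mean.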

How the data were processed

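Total RNA of T47D cells from 5 siRNA groups was depleted of ribosomal RNA and hybridised to 15 Affymetrix exon arrays, 3 technical repeats per group, per the labels' protocols. The deposited values are log2 robust multi-array average signals that the authors made for core exons with ArrayAssist, per the labels; background correction and normalization across arrays were thus done before deposit, and array widths still differed between groups. The gene-level table has 22011 clusters and the exon-level file has 287329 probe sets of the same arrays. Symbols came from the platform annotation, updated where a newer symbol was listed: 14432 clusters had 1 symbol, 2408 had several and 5171 were not listed. Arrays give signal and no counts, so their number, 3 per group, limits the precision.

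A linear model of group means was fitted on all 15 arrays with limma 3.58.1 in R 4.3.3, with moderated tests of 4 knockdowns against control, their mean against control and 6 pairs of knockdowns. Adjusted p-values are Benjamini-Hochberg values over all clusters, or over all probe sets, and 95% intervals come from the same model. Exon usage was tested with limma's diffSplice after probe sets under the 25th percentile were left out. The gene-level test had been planned for all kinases; BUB1B was instead fitted in the table of exon-level medians of 16909 symbols, because its cluster carries a second symbol. Simulated data took each cluster's mean over the 15 arrays and its spread within groups, the same for every array. With known changes put into siNELF-E, 57 of 100 genes changed by 1 on the log2 scale were recovered against control. Of those changed by 2, 95 of 100 were recovered, with 9 of the unchanged genes among 22011 called. The uneven spread of the siNELF-B arrays was not imitated, so these rates do not cover it.

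The kinases and the gene lists were chosen with earlier results of these data known. Named genes were the 10 kinases, up to 4 members of each list called in the mean of the 4 knockdowns by size of change and the 2 brightest not called, the 5 clusters most alike over arrays, and the NELF genes; other genes are said to be chosen after their values were seen. Alternatives covered scaling, array spread, array weights, filters, the replicate number, exon-level medians and each array left out. NELFB was not analysed here.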

Additional observations from a re-analysis of the deposited data

Results flagged for a closer look

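The same contrast against control differed between knockdowns, by limma's test of the difference itself with Benjamini-Hochberg adjustment, for the kinases that follow. The knockdowns of a pair share no array, and a negative value means lower in the first.

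Between siNELF-E and siNELF-A the differences were -1.6 for PLK1 (adjusted p = 0.0024), -1.79 for NEK2 (4.17e-05) and -1.38 for AURKA (0.00711). They were -1.18 for AURKB (0.00281), -1.78 for BUB1 (0.00771), -1.68 for MELK (0.0285) and -2.01 for PBK (0.0195). Between siNELF-E and siNELF-B they were -1.69 for PLK1 (0.00206), -1.83 for NEK2 (0.000157), -1.05 for AURKA (0.0277), -1.63 for AURKB (0.000479) and -1.31 for BUB1 (0.0327). Between siNELF-E and siNELF-C they were -1.39 for PLK1 (0.0052), -1.11 for NEK2 (0.00115) and -0.977 for AURKB (0.00803). NEK2 also differed between siNELF-C and siNELF-A by -0.676 (0.0315) and between siNELF-C and siNELF-B by -0.715 (0.0299). Of the 15 fits with an array left out, these NEK2 calls were lost in 8 and 5. In siNELF-E against siNELF-A, MELK and PBK were lost in 6 and 5, and against siNELF-B, AURKA and BUB1 in 3 and 4. From exon-level medians the NEK2 and AURKB differences between siNELF-E and siNELF-C were not called.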

How the results depend on the processing

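Counts are of the 9 kinases called lower unless stated. In this section they stand without the share of all clusters called lower in the same fit. That share also moved, as given above for fits without siNELF-B arrays, so a count alone is not read as a kinase result. Quantile normalization gave 2 in siNELF-A, 2 in siNELF-C against siNELF-B and 6 in siNELF-E against siNELF-C, and turned the siNELF-B values of NEK2 to 0.187 and AURKB to 0.0697. Centring on medians gave 2 in siNELF-C against siNELF-B and 5 in siNELF-E against siNELF-C. Centring on 75th percentiles gave 2 in siNELF-C against siNELF-A, 2 in siNELF-C against siNELF-B, 8 in siNELF-E against siNELF-B and 7 in siNELF-E against siNELF-C, and turned the siNELF-B values of NEK2 to 0.151 and AURKB to 0.0381. The interquartile range as a covariate gave 3, 5, 9 and 9 in these same pairs, and turned CDK1 to 0.0866 and PBK to 0.0926 in siNELF-A, and CDK1 to 0.164, TTK to 0.00613, PBK to 0.155 and BUB1B to 0.355 in siNELF-B. Without siNELF-B replicates 2 and 3 the counts were 5 and 6 in siNELF-A and siNELF-B, 7 and 0 for siNELF-C against each of these, and 8 for siNELF-E against siNELF-C; probe sets called lower numbered 12, 23, 129 and 140 in siNELF-A, B, C and E, and exon usage calls 23. Array weights gave 4 and 7 in siNELF-A and siNELF-B, 1 for the latter against the former, 5 and 2 in siNELF-C against siNELF-A and siNELF-B, and 9 and 8 in siNELF-E against siNELF-B and siNELF-C. Leaving out clusters under the 40th percentile gave 3 in siNELF-B. Exon-level medians gave 0 and 0 in siNELF-C against siNELF-A and siNELF-B, and 3 and 1 in siNELF-E against siNELF-B and siNELF-C. A fit of only the 2 groups compared gave 5 in siNELF-A.

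With each array left out in turn the counts in siNELF-A, B, C and E ran from 0 to 3, 0 to 7, 2 to 9 and 7 to 9, and in the mean of the 4 from 4 to 9. Between knockdowns they ran from 0 to 6 (siNELF-B against siNELF-A), 0 to 4 (siNELF-C against siNELF-A), 5 to 9 (siNELF-E against siNELF-A), 0 to 3 (siNELF-C against siNELF-B), 3 to 9 (siNELF-E against siNELF-B) and 3 to 6 (siNELF-E against siNELF-C). Probe sets ran from 0 to 2, 0 to 107, 1 to 99 and 44 to 130 in siNELF-A, B, C and E, and exon usage calls from 0 to 25. The cause of these shifts was not tested.

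Same-numbered samples correlated at -0.297 to 0.203 in their deviations, above 0.1 in 3 of 30 pairs, so the replicate number was not taken as a pairing. With the replicate number as a block the counts were 1, 0, 6 and 8 in siNELF-A, B, C and E and 6 in the mean, with 8 probe sets called lower in siNELF-C and 4 exon usage calls. The block ended the siNELF-E calls of CDK1 (adjusted p = 0.059), BUB1B (0.0798) and CDK16 (0.0747), the calls in the mean of TTK (0.0561), PBK (0.0622), CDC25C (0.0532), CDK14 (0.0586) and PPP2R5D (0.0567), the BUB1 call in siNELF-E against siNELF-B (0.0507), and the usage calls of NEK2 in siNELF-E and of MELK in siNELF-C and siNELF-E.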
